A study of Homo sapiens with 12 samples.

Results

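The TNF ligand and receptor superfamily was taken as every protein-coding gene of the count table whose symbol starts with TNFSF (ligands) or TNFRSF (receptors). This rule, which uses no measured value, found 33 genes, 12 ligands and 21 receptors, among 19828 protein-coding genes and 58233 genes in all. They were followed in HCT116, a human colorectal carcinoma cell line, in 12 RNA-seq libraries that form 4 groups of 3. The parental line carries OsTIR1, a plant F-box protein, at the AAVS1 locus under a doxycycline-inducible promoter, and so does the SDS22-degron line made from it. In the SDS22-degron line, which was expanded from individual CRISPR-edited colonies, the PPP1R7 gene additionally encodes SDS22, a regulatory subunit of protein phosphatase-1, fused to mAID (an auxin-inducible degron) and mClover (a green fluorescent protein). Each line was either left untreated or given 2 µg/ml doxycycline (Dox) and 500 µM of the auxin indole-3-acetic acid (IAA) for 48 h, which in the SDS22-degron line leads to the proteolysis of SDS22. The parental line with Dox/IAA therefore shows what the inducers and OsTIR1 do without a degron. Tag, clone and cell line cannot be told apart in comparisons between the lines.

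The libraries held 12133915 to 14657508 counts assigned to genes, so that 3 counts in a library correspond to 0.206 to 0.253 CPM (counts scaled to the library's total, after TMM normalisation). Epithelial markers fitted the labelled cell type: 5 of 6 (EPCAM, CDH1, KRT8, KRT18, KRT19, VIL1) were at 1 CPM or more in all 12 libraries, with a summed level of 2630 to 4190 CPM. Haematopoietic markers summed to 0 to 0.906 CPM, with CD3E, MS4A1 and NKG7 at 0 counts in every library. Fibroblast markers (COL1A1, COL1A2, PDGFRB) summed to 9.96 to 15.8 CPM in untreated and 17.2 to 31.7 CPM in Dox/IAA-treated libraries, with COL1A2 at 0 throughout, and endothelial markers (PECAM1, VWF, CDH5) to 1.07 to 1.73 CPM in treated SDS22-degron libraries and at most 0.802 CPM elsewhere, with CDH5 at 0 throughout; their part in the results was not tested. PPP1R7 mRNA was at 43.7 ± 3.82 CPM (SD, n = 3) in untreated and 45.4 ± 4.11 CPM in Dox/IAA-treated parental cells, against 44.02 ± 2.95 and 47.9 ± 3.40 CPM in SDS22-degron cells. Since the degron acts on the protein, this does not check the depletion.

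TNF superfamily ligands are mostly trimeric type II membrane proteins that can be cleaved off the cell, and their receptors are type I or type III membrane proteins, or anchored or soluble proteins that lack a signalling tail. Receptors with a cytoplasmic death domain can recruit FADD and caspase-8 and start apoptosis, whereas most others bind TRAF adaptors and activate NF-kB and MAP kinases. Epithelial tumour cells such as HCT116 are known for their receptors for TRAIL (TNFSF10), a ligand that immune cells display, while many other members act mainly between lymphocytes and antigen-presenting cells.

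Of the 33 genes, 16 passed the filter on low counts and were tested, namely 12 receptors and 4 ligands. Another 9 had counts but too few for a test: TNFRSF1B, TNFRSF4, TNFRSF8, TNFRSF9, TNFRSF14, TNFSF10, TNFSF13, TNFSF13B and TNFSF15, with 4 (TNFRSF14) to 63 (TNFRSF1B) counts over the 12 libraries together. The last 8 were at 0 counts throughout: TNFRSF6B, TNFRSF11B, TNFRSF13B, TNFRSF17, TNFSF8, TNFSF11, TNFSF14 and TNFSF12-TNFSF13. A count of 0 allows at most the 3-count level given above. The 0 is uncertain for those that overlap another gene: TNFRSF6B lies inside the read-through gene RTEL1-TNFRSF6B, TNFSF12-TNFSF13 joins 2 neighbouring genes, TNFRSF17 lies inside NPIPB2 on the opposite strand, where the strand setting of the counting is not given in the sources used here, and TNFRSF13B overlaps TBC1D27 on the same strand.

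Per kilobase of gene length, the highest mean levels over the 12 libraries were those of TNFRSF12A, the receptor of TWEAK, at 90.0 CPM per kb, and of the TRAIL receptor TNFRSF10B at 57.7 CPM per kb. They were followed by TNFRSF21 (39.3), TNFRSF10D (35.8), TNFSF9 (28.0), TNFRSF1A (27.3), TNFRSF10A (20.4) and TNFRSF18 (19.1 CPM per kb). The range over libraries of each of these overlapped that of the next one in the order. The next in order, TNFSF18 (GITR ligand), averaged 10.2 CPM per kb but spanned 0.299 to 32.7 CPM per kb, the widest relative range among the 16 tested genes. The rest ran from TNFSF12 (5.11), TNFRSF10C (4.58) and TNFRSF25 (2.54) down to TNFRSF11A (0.741), TNFRSF13C (0.698), TNFSF4 (0.426) and TNFRSF19 (0.24 CPM per kb).

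**Figure D1:**
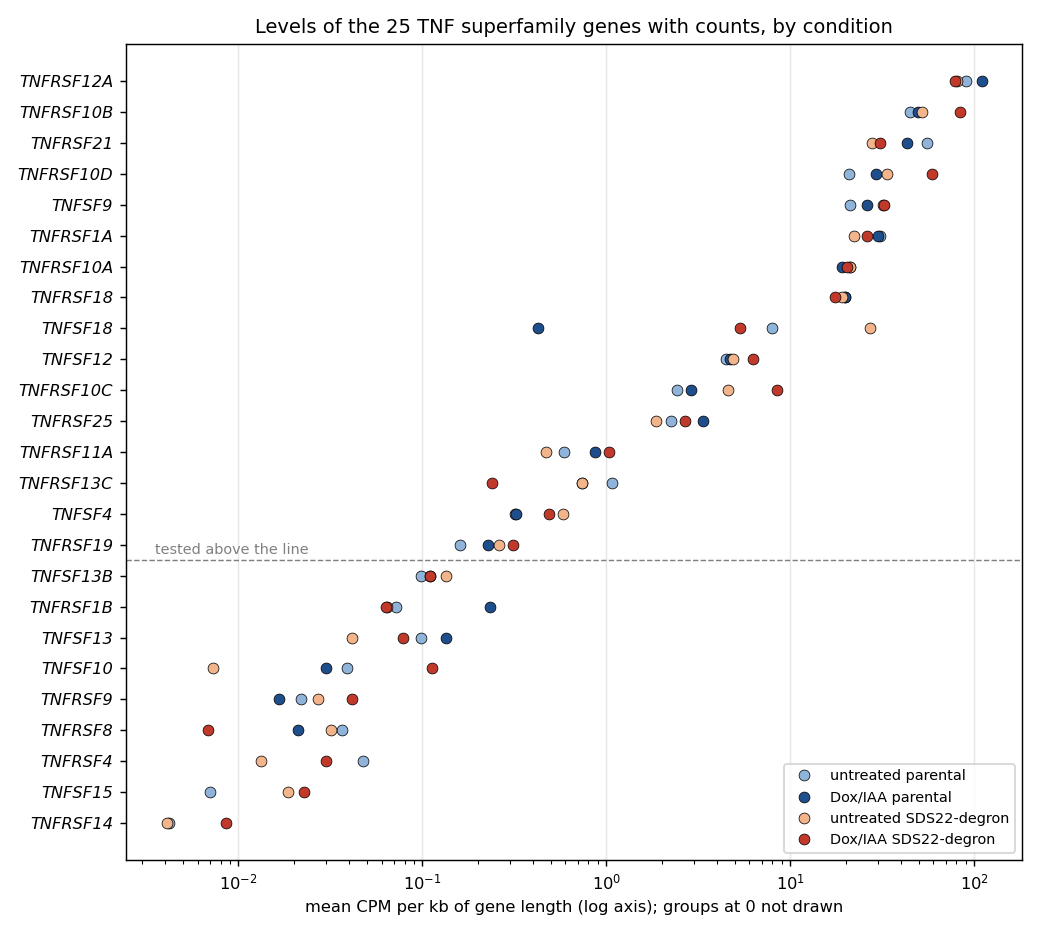
Mean level (CPM per kb of gene length, log axis) of the 25 superfamily genes with at least 1 count, one point per condition, ordered by the mean over the 12 libraries; each point is the mean of 3 libraries. TNFRSF12A leads at 90.0 CPM per kb, and the 9 genes under the dashed line had too few counts to be tested.

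Ligands and their receptors seldom both passed the filter on low counts. Of 34 known ligand-receptor pairs that involve the superfamily, also under older symbols such as TNF or FASLG, both partners were tested in 2 (TNFSF18 with TNFRSF18, and TNFSF12 with TNFRSF12A). In 13 pairs only the receptor passed the filter, in 4 only the ligand, and in 15 neither. Some genes recur in several pairs. Whether joint passing was rarer than the separate shares of passing ligands and receptors would give was not tested. The receptor-only pairs include TRAIL with its 4 membrane receptors, TNF (0 counts in all libraries) with TNFRSF1A, and RANKL (TNFSF11, 0 counts) with TNFRSF11A. In these bulk samples, fewer cells that make a transcript and less of it per cell cannot be told apart.

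Differences were tested with edgeR's quasi-likelihood test over all 16657 genes that passed the filter, and a gene was called at a Benjamini-Hochberg adjusted p under 0.05. Between the Dox/IAA-treated lines, which differ in whether SDS22 could be degraded, 6 of the 16 tested superfamily genes were higher in SDS22-degron cells (TNFSF18, TNFRSF10B, TNFRSF10C, TNFRSF10D, TNFSF12, TNFSF9), where 21.8% of all tested genes were called higher. TNFRSF13C, TNFRSF21, TNFRSF12A and TNFRSF1A, 4 genes, were lower, against 23.1% of all genes. With the study's cut-off, which asks for an unadjusted p under 0.05 and more than a 2-fold change in either direction, 4 of the 16 passed, against 6.63% of all genes. The study took its p from edgeR's likelihood ratio test, whereas the cut-off was applied here to the p of the quasi-likelihood test. The median log2 fold change of the 16 was 0.29, against -0.0056 for all tested genes. It was -0.043 for the 12 receptors and 0.50 for the 4 ligands. The 16 genes' median absolute log2 fold change was 0.47 against 0.28. Between the untreated lines this absolute median was 0.51 against 0.20. With Dox/IAA it was 0.31 against 0.32 in SDS22-degron cells and 0.295 against 0.219 in parental cells. The 4 ligands also had a median log2 fold change of 0.73 between the untreated lines.

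Between the untreated lines 6 genes were higher in SDS22-degron cells (TNFSF18, TNFSF4, TNFSF9, TNFRSF10B, TNFRSF10C, TNFRSF10D; 13.2% of all genes) and 2 were lower (TNFRSF1A and TNFRSF21; 15% of all genes). Of these only TNFSF18 passed the study's cut-off (4.14% of all genes). Within SDS22-degron cells Dox/IAA raised 7 (TNFRSF1A, TNFRSF10B, TNFRSF10C, TNFRSF10D, TNFRSF11A, TNFRSF25, TNFSF12; 26.0% of all genes) and lowered 2 (TNFSF18 and TNFRSF13C; 25.5% of all genes), and 3 passed the cut-off (7.83% of all genes). Within parental cells Dox/IAA raised 4 (TNFRSF10D, TNFRSF11A, TNFRSF12A, TNFRSF25; 15.9% of all genes) and lowered 2 (TNFSF18 and TNFRSF21; 15.7% of all genes), and TNFSF18 alone passed the cut-off (3.14% of all genes). The response to Dox/IAA itself differed between the lines, by the interaction term, in 5 genes: it was more positive in SDS22-degron cells for TNFSF18, TNFRSF10B, TNFRSF10C and TNFRSF21 (4 genes; 6.03% of all genes) and more negative for TNFRSF13C (8.35% of all genes). TNFSF18 and TNFRSF13C, 2 genes, had an absolute interaction above 1 on the log2 scale (3.6% of all genes). These comparisons share libraries, so that their counts are not independent of each other.

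**Figure D2:**
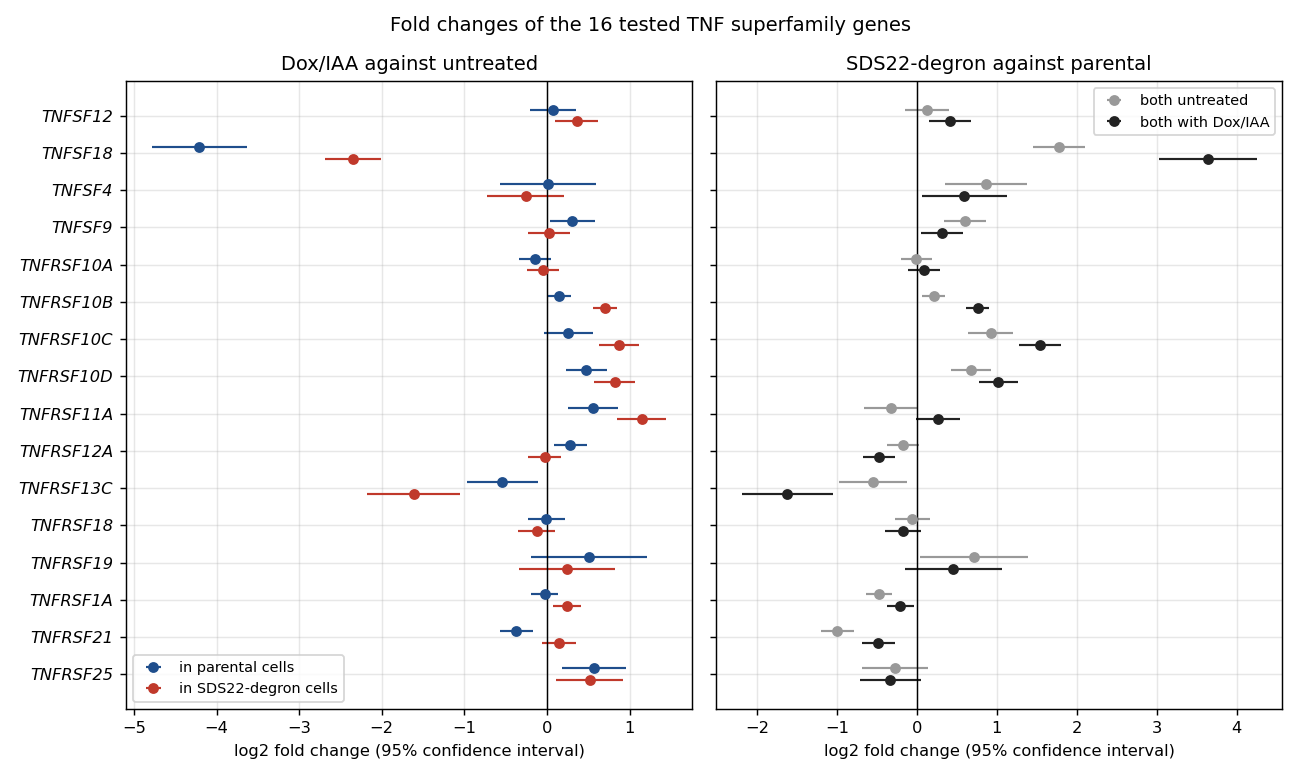
Log2 fold changes with 95% confidence intervals of the 16 tested genes, ligands on top. Left, Dox/IAA against untreated in parental (blue) and SDS22-degron (red) cells; right, SDS22-degron against parental, untreated (grey) and with Dox/IAA (black). TNFSF18 lies at -4.21 and -2.35 on the left and at 1.78 and 3.64 on the right, whereas its receptor TNFRSF18 stays near 0 in all 4.

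TNFSF18 encodes GITR ligand, a membrane ligand known from antigen-presenting and endothelial cells that costimulates T cells through GITR (TNFRSF18). It fell with Dox/IAA in both lines and was higher in SDS22-degron than in parental cells under both conditions. The untreated parental libraries held 16.2, 12.7 and 18.95 CPM and the treated ones 0.6, 0.632 and 1.34 CPM, the latter from 8, 8 and 17 counts. The untreated SDS22-degron libraries held 49.2, 49.2 and 65.6 CPM and the treated ones 8.77, 10.53 and 13.01 CPM. All 4 groups were apart except that the highest treated SDS22-degron library (13.01 CPM) exceeded the lowest untreated parental one (12.7 CPM).

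In parental cells, the log2 fold change of TNFSF18 with Dox/IAA was -4.21 (SE 0.275, adjusted p = 1.34e-08), an 18.5-fold decrease and the lowest log2 fold change among the 16657 tested genes. In SDS22-degron cells it was -2.35 (SE 0.161, adjusted p = 3.45e-09), a 5.08-fold decrease and the 10th lowest value. The decrease was thus smaller in SDS22-degron cells, with an interaction of 1.86 (SE 0.363, adjusted p = 0.00208). SDS22-degron cells had 3.43-fold more TNFSF18 than parental cells without treatment (log2 1.78, SE 0.154, adjusted p = 1.69e-07) and 12.5-fold more with Dox/IAA (log2 3.64, SE 0.291, adjusted p = 2.52e-08). In treated SDS22-degron cells the level remained below that of untreated SDS22-degron cells, so that the higher level relative to treated parental cells went along with a decrease, not with an increase, within the line. Every one of these 5 calls held under every alternative setting that was run.

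TNFSF18 lies on chromosome 1 (GRCh38, chr1:173039960-173050963, minus strand). Its neighbours did not share the change as a group. The median log2 fold change of the 53 tested genes within 5 Mb outside the superfamily was -0.093 with Dox/IAA in parental cells. Between the treated lines this median was 0.026. The next superfamily gene on that side, TNFSF4 (OX40 ligand, another T cell costimulator), lies 133 kb away on the same strand and was not called with Dox/IAA in either line. It changed by 0.017 on the log2 scale in parental cells (95% confidence interval -0.57 to 0.60) and in SDS22-degron cells -0.26 (-0.73 to 0.21). Between the lines TNFSF4 was, like TNFSF18, higher in SDS22-degron cells. The difference was 0.87 without treatment (adjusted p = 0.0123) and 0.59 with Dox/IAA, the latter not called (adjusted p = 0.0652). FASLG, 373 kb away on the other side, was at 0 counts in all libraries.

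The receptor TNFRSF18 (GITR) did not follow its ligand. It was measured at 26.3, 26.1 and 29.3 CPM in untreated parental libraries and at 27.9, 26.4 and 27.1 CPM in treated ones. SDS22-degron libraries held 23.7, 25.6 and 29.4 CPM without and 20.8, 23.6 and 27.8 CPM with Dox/IAA. The groups overlapped in every comparison and none was called. The treated lines differed by -0.18 on the log2 scale (interval from -0.40 to 0.048, adjusted p = 0.194), and without replicate 3 of the treated SDS22-degron libraries it was -0.29 with an adjusted p of 0.0442.

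The 250 bases before the RefSeq start site of TNFSF18, of TNFRSF11A and of TNFRSF21 are shown because these genes answered Dox/IAA in parental cells in different ways: the first and the last fell, and TNFRSF11A rose. All are in GRCh38.p14, written 5′ to 3′ on the gene's strand, with matches to searched motifs in capitals. The windows are chr1:173050942-173051191 (minus strand) for TNFSF18, chr18:62325060-62325309 (plus strand) for TNFRSF11A and chr6:47309906-47310155 (minus strand) for TNFRSF21.
TNFSF18: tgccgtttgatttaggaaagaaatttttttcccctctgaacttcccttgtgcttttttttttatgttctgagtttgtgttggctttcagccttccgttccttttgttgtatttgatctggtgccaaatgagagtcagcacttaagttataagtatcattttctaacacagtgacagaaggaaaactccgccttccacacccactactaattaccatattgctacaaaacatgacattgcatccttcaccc
TNFRSF11A: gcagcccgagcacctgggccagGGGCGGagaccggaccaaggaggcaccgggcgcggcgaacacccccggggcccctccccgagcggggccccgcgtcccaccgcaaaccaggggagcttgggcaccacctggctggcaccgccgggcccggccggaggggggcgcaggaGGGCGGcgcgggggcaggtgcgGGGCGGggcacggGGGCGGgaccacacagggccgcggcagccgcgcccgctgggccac
TNFRSF21: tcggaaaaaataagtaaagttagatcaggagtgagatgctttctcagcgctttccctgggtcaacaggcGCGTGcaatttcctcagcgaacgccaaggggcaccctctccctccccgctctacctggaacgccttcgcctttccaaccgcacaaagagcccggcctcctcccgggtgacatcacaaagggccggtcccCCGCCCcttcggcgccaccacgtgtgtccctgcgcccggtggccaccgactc
The motifs were a TATA box (TATAAA), the AP-1 element TGANTCA, the core of the xenobiotic response element (GCGTG), a GC box (GGGCGG) and the NF-kB consensus, each on both strands. The TNFSF18 window has 38.8% G and C and held none of them, which says only that these letters are not in the window. The TNFRSF11A window has 82.4% G and C and held 4 GC boxes, whose first bases lie 228, 80, 58 and 45 bases before the start site. The TNFRSF21 window (62.0% G and C) held GCGTG at 181 bases and, on the other strand, a GC box at 52 bases. Over 27305 RefSeq promoter windows of the same 250 bases, a GC box was found in 42.3%, GCGTG in 31.9%, TATAAA in 11.1%, TGANTCA in 6.6% and the NF-kB consensus in 5.05%. Of the 33 superfamily genes 21 had such a window, and of these 12 held a GC box, 6 GCGTG and 3 each of the others.

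TRAIL (TNFSF10) binds the death-domain receptors TNFRSF10A (DR4) and TNFRSF10B (DR5), which can start apoptosis, and TNFRSF10C (DcR1) and TNFRSF10D (DcR2), which bind the ligand but lack a functional death domain. All 4 lie next to each other on chromosome 8. TNFRSF10B, TNFRSF10C and TNFRSF10D were at their highest in SDS22-degron cells treated with Dox/IAA, where they did not overlap any other group, while TNFRSF10A was not called in any comparison.

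TNFRSF10B was at 246, 215 and 233 CPM in untreated and 268, 231 and 269.6 CPM in treated parental libraries. It was at 262, 269 and 272 CPM in untreated SDS22-degron libraries and at 438, 434 and 432 CPM in treated ones. The treated SDS22-degron group thus stood well above the other 3 groups, which lay within 215 to 272 CPM. It was 1.7-fold higher than in treated parental cells (log2 0.76, SE 0.0689, adjusted p = 9.50e-08) and 1.62-fold higher than in untreated SDS22-degron cells (log2 0.70, adjusted p = 1.63e-07). In parental cells the log2 fold change with Dox/IAA was 0.15 (adjusted p = 0.115). It was called with library sizes in place of TMM scaling (adjusted p = 0.0243), with GC correction (0.0481), with GC correction and a replicate block (0.0324) and without treated parental replicate 2 (0.0173). The interaction was 0.55 (SE 0.0974, adjusted p = 0.000946). The smaller difference between the untreated lines (log2 0.21, adjusted p = 0.0288) was lost when any one of 5 libraries was left out, with adjusted p from 0.0529 to 0.0862: untreated parental replicate 2 or 3, or untreated SDS22-degron replicate 1, 2 or 3.

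TNFRSF10C, a glycolipid-anchored receptor, was at 7.26, 5.79 and 6.02 CPM in untreated and 6.75, 8.06 and 8.02 CPM in treated parental libraries. In SDS22-degron cells it was at 11.01, 12.45 and 12.7 CPM without and 20.2, 25.01 and 21.2 CPM with Dox/IAA. The SDS22-degron libraries were above all parental ones, and the treated ones above the untreated ones. It was 2.91-fold higher than in treated parental cells (log2 1.54, SE 0.123, adjusted p = 2.47e-08), 1.9-fold higher between the untreated lines (adjusted p = 5.13e-05) and 1.84-fold higher with Dox/IAA in SDS22-degron cells (adjusted p = 4.61e-06). In parental cells the log2 fold change with Dox/IAA was 0.26 (adjusted p = 0.180). The interaction was 0.62 (SE 0.185, adjusted p = 0.0313), a call that was lost, with adjusted p from 0.0530 to 0.117, without any one of 5 libraries: replicate 1 of untreated parental, treated parental or untreated SDS22-degron cells, or replicate 2 of untreated or treated SDS22-degron cells.

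TNFRSF10D, whose death domain is truncated, was at 65.1, 72.3 and 85.5 CPM in untreated and 114, 80.2 and 116.0 CPM in treated parental libraries, so that these groups overlapped. In SDS22-degron cells it was at 109.9, 122 and 125 CPM without and 204, 196 and 229.5 CPM with Dox/IAA. It was 2.03-fold higher than in treated parental cells (log2 1.02, SE 0.117, adjusted p = 1.47e-06) and 1.6-fold higher between the untreated lines (adjusted p = 0.000323). Dox/IAA raised it in both lines, by 0.48 in parental (adjusted p = 0.00526) and 0.82 in SDS22-degron cells (adjusted p = 1.08e-05) on the log2 scale. The interaction of 0.34 was not called (95% confidence interval -0.0088 to 0.69, adjusted p = 0.184).

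TNFRSF10A was at 62.0, 60.2 and 64.9 CPM in untreated and 57.6, 50.8 and 61.2 CPM in treated parental libraries. In SDS22-degron cells it was at 60.9, 60.25 and 65.4 CPM without and 66.05, 50.2 and 64.2 CPM with Dox/IAA. The groups overlapped in all 4 comparisons, and between the treated lines the difference was 0.089 on the log2 scale (adjusted p = 0.466, with a 95% confidence interval from -0.11 to 0.29).

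Per kb, the 4 receptors together came to 84.8 to 93.7 CPM per kb in untreated parental, 87.8 to 108.9 in treated parental, 106.7 to 115 in untreated SDS22-degron and 166 to 178.5 CPM per kb in treated SDS22-degron libraries. TNFRSF10B made up a similar share of this sum in every group, on average between 46.7% and 50.2%. The share of TNFRSF10A went from 23.7% ± 0.379 (SD, n = 3) in untreated parental cells to 19% ± 0.656 with Dox/IAA, and from 18.9% ± 0.635 to 11.8% ± 1.44 in SDS22-degron cells. The receptors without a functional death domain, TNFRSF10C and TNFRSF10D, together made up 26.2% ± 2.44, 31.7% ± 2.05, 34.4% ± 1.102 and 39.3% ± 1.51 in the same order. These sums and shares are descriptions with no test.

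**Figure D3:**
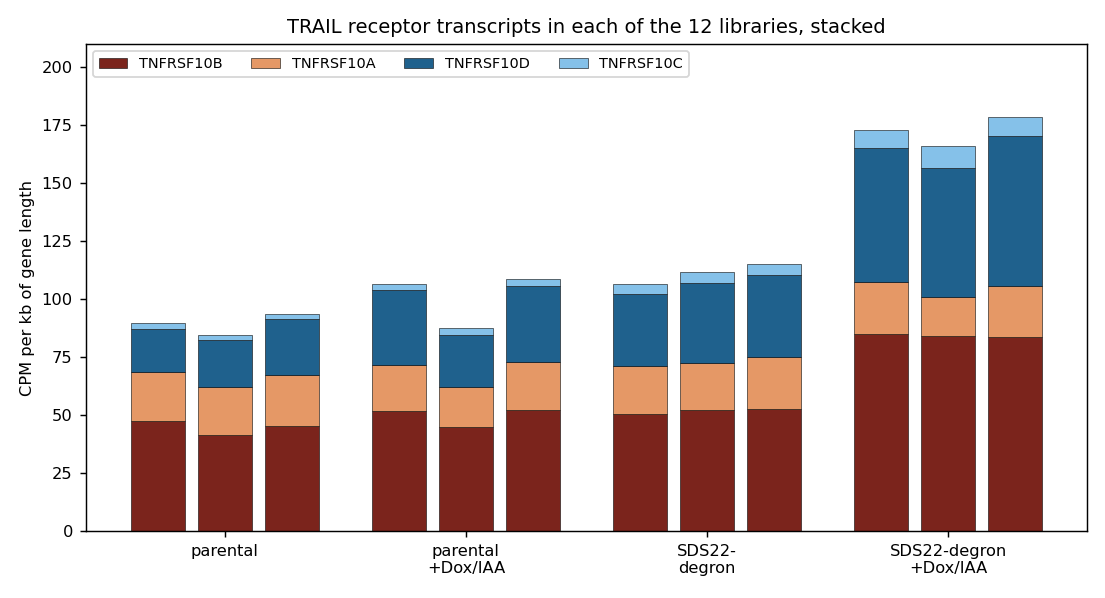
Level (CPM per kb of gene length) of the 4 TRAIL receptors in each of the 12 libraries, stacked, 3 bars per condition in the order of replicates 1 to 3. The summed level is 166 to 178.5 CPM per kb in the Dox/IAA-treated SDS22-degron libraries and at most 115 CPM per kb in all others.

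As a median, the region did not share the rise. The 59 to 61 other tested genes within 5 Mb of TNFRSF10B, TNFRSF10C and TNFRSF10D had a median log2 fold change of about -0.0091 between the treated lines (-0.0089 for TNFRSF10C), and all tested genes of chromosome 8 one of -0.13. RHOBTB2, which overlaps the 3′ end of TNFRSF10B on the opposite strand, changed by -0.51 between the treated lines. The strand setting of the counting is not given in the sources used here, so that reads in the overlap cannot be told apart. Of the 75-base words of TNFRSF10A, TNFRSF10B and TNFRSF10D transcripts at most 0.118% recur in another gene, and of those of TNFRSF10C 23.9% do, most of them in another gene model of an annotation that may differ from that of the counts.

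TRAIL itself was barely detected. TNFSF10 had 1, 2 and 2 counts in untreated and 1, 1 and 2 counts in treated parental libraries. SDS22-degron libraries had 0, 0 and 1 counts without and 5, 6 and 4 counts with Dox/IAA. The gene did not pass the filter. In the fit without a filter the change with Dox/IAA in SDS22-degron cells was 3.57 on the log2 scale (adjusted p = 0.00432), which rests on 1 against 15 counts, and between the treated lines 1.82 (adjusted p = 0.111). TNFRSF11B (osteoprotegerin), a soluble receptor that binds TRAIL and RANKL, was at 0 counts in all 12 libraries.

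TNFRSF13C encodes BAFF receptor, a survival receptor of B cells, and its transcript was low and fell in SDS22-degron cells with Dox/IAA. Untreated parental libraries held 5.23, 3.596 and 3.96 CPM and treated ones 3.22, 3.24 and 2.28 CPM. Untreated SDS22-degron libraries held 3.21, 2.61 and 2.885 CPM and treated ones 0.992, 1.16 and 0.659 CPM, from 13, 15 and 8 counts. The treated SDS22-degron group lay below all others.

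The log2 fold change of TNFRSF13C was -1.62 between the treated lines (SE 0.271, adjusted p = 8.99e-05), a 3.07-fold lower level, and -1.61 with Dox/IAA in SDS22-degron cells (SE 0.269, adjusted p = 6.57e-05). In parental cells Dox/IAA changed it by -0.54 (adjusted p = 0.0519), and the groups did not overlap. This change was called in 7 of 22 alternatives, the replicate block among them (-0.54, adjusted p = 0.0350). The untreated lines differed by -0.55 (adjusted p = 0.05004, just above the threshold), which 10 of 22 alternatives called, the replicate block among them (adjusted p = 0.0339). The interaction of -1.07 (SE 0.344, adjusted p = 0.0442) was lost with DESeq2 on all 12 libraries (adjusted p = 0.0672) and when any one of 9 libraries was left out, with adjusted p from 0.0585 to 0.118, the exceptions being untreated parental replicate 1, treated parental replicate 3 and treated SDS22-degron replicate 2. Its ligand BAFF (TNFSF13B) had at most 8 counts in any library.

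TNFRSF11A encodes RANK, the receptor of RANKL, known from osteoclasts and mammary and thymic epithelium. It was at 4.73, 5.32 and 5.85 CPM in untreated and 8.55, 7.11 and 7.71 CPM in treated parental libraries. In SDS22-degron cells it was at 4.37, 4.26 and 4.02 CPM without and 10.1, 9.99 and 7.99 CPM with Dox/IAA. The treated groups lay above the untreated ones and overlapped each other.

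Dox/IAA raised TNFRSF11A 2.21-fold in SDS22-degron cells (log2 1.147, SE 0.143, adjusted p = 2.69e-06) and 1.47-fold in parental cells (log2 0.56, SE 0.144, adjusted p = 0.00679). The interaction was 0.59 (95% confidence interval 0.16 to 1.02, adjusted p = 0.0614), past the threshold with the likelihood ratio test (adjusted p = 0.0451) and without treated SDS22-degron replicate 3 (adjusted p = 0.0396). The treated lines differed by 0.26 (adjusted p = 0.114; 0.0460 without the same library).

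**Figure D4:**
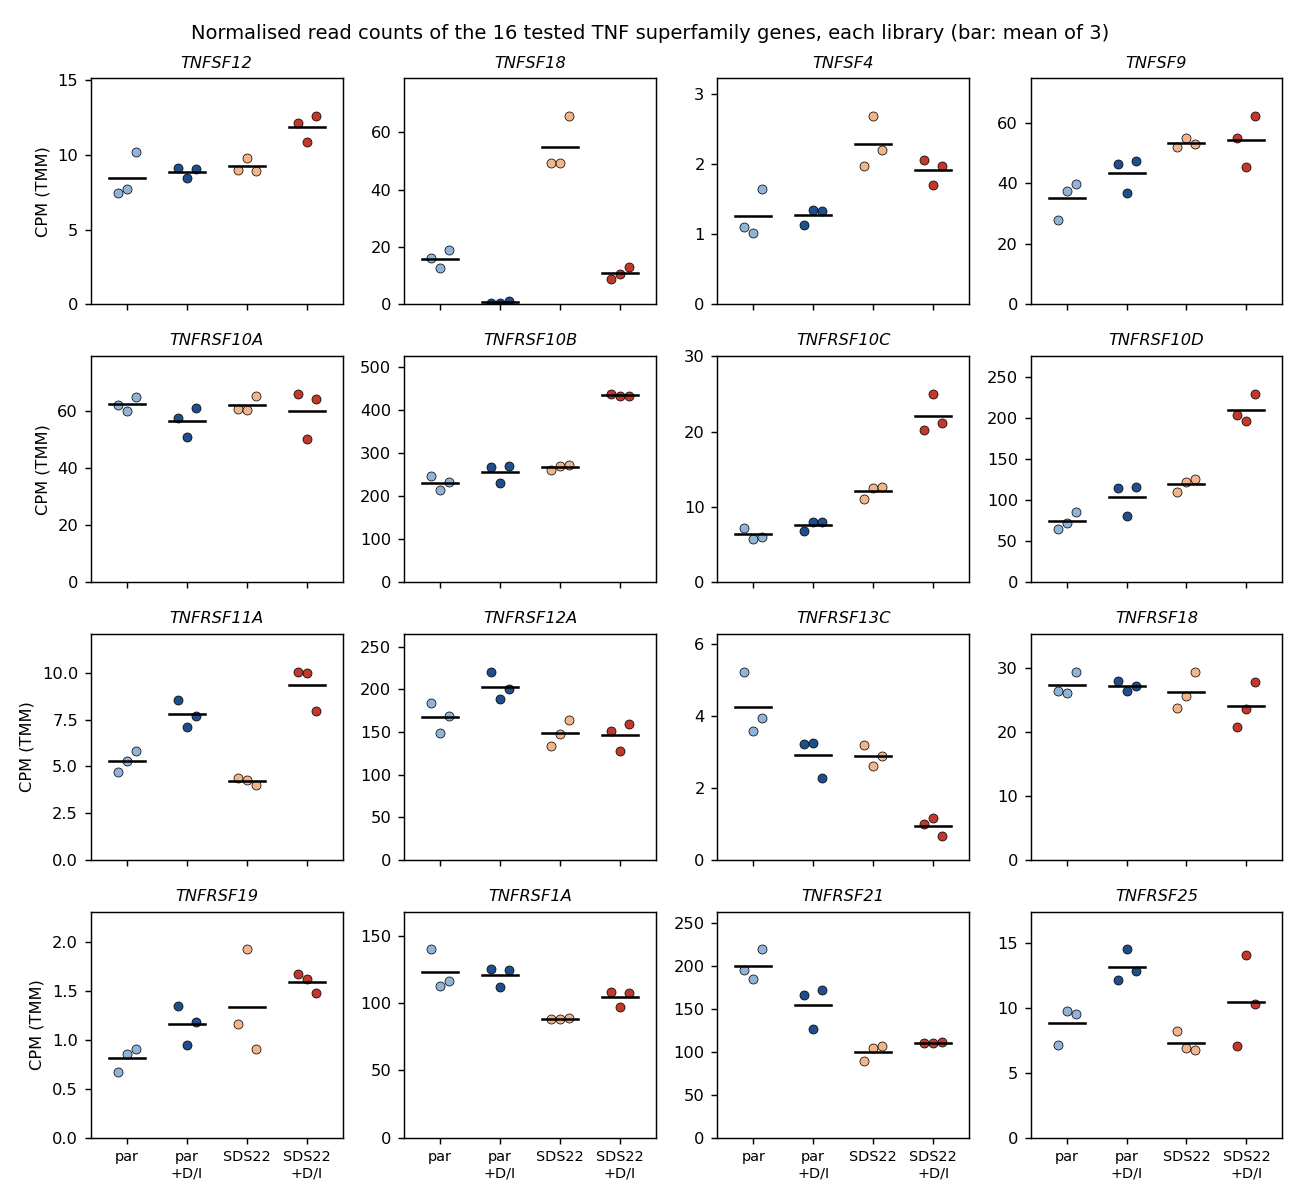
Normalised read counts (CPM, linear axes from 0) of the 16 tested genes in each library: parental (par), parental with Dox/IAA (par +D/I), SDS22-degron (SDS22) and SDS22-degron with Dox/IAA (SDS22 +D/I). Points are libraries and bars are means of 3. TNFSF18 is lowest in treated parental cells at 0.6 to 1.34 CPM, and TNFRSF10B, TNFRSF10C and TNFRSF10D are highest in treated SDS22-degron cells.

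TNFRSF21 (DR6), a death-domain receptor best known from neurons, had the largest of its own differences between the untreated lines. It was at 196, 185 and 219 CPM in untreated and 166, 127 and 171 CPM in treated parental libraries. In SDS22-degron cells it was at 89.8, 104.5 and 106 CPM without and 110.2, 110.0 and 112 CPM with Dox/IAA, below every parental library. Untreated SDS22-degron cells had 0.501 times the parental level (log2 -0.997, SE 0.0976, adjusted p = 7.23e-07), and treated ones 0.716 times (log2 -0.48, adjusted p = 0.000549). Dox/IAA lowered it in parental cells (log2 -0.37, adjusted p = 0.00653) and not detectably in SDS22-degron cells (0.14, 95% confidence interval -0.064 to 0.35). The interaction of 0.51 (SE 0.137, adjusted p = 0.0173) was lost without untreated parental replicate 3 (adjusted p = 0.0513) or untreated SDS22-degron replicate 1 (adjusted p = 0.0565).

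The other called receptors changed by less than 0.6 on the log2 scale. TNFRSF1A, the main TNF receptor with a death domain, was lower in untreated SDS22-degron than in untreated parental cells by -0.47 (adjusted p = 0.000215; 88.3 to 89.0 against 113 to 140.0 CPM), rose with Dox/IAA in SDS22-degron cells by 0.24 (adjusted p = 0.0177) and did not change detectably in parental cells (-0.028, adjusted p = 0.822). Its difference of -0.21 between the treated lines (adjusted p = 0.0416) was lost with DESeq2 (0.0579), with upper-quartile scaling (0.0741) and without any one of 6 libraries, with adjusted p up to 0.165: treated parental replicate 1 or 3, any untreated SDS22-degron library, or treated SDS22-degron replicate 2. The gain within SDS22-degron cells was lost without untreated replicate 2 or treated replicate 1 or 3 (adjusted p from 0.0504 to 0.0712).

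TNFRSF12A (Fn14), the TWEAK receptor, was 146.0 ± 15.9 CPM in treated SDS22-degron and 203 ± 16.1 CPM in treated parental cells (log2 -0.48, SE 0.0952, adjusted p = 0.000490). The 160 other tested genes within 5 Mb on chromosome 16 had a median of -0.28 in this comparison, and all tested genes of that chromosome one of -0.31, a fact whose part in the result was not tested. Dox/IAA raised TNFRSF12A in parental cells by 0.28 (adjusted p = 0.0301), a call lost with a correction for GC content (0.0734) and without untreated parental replicate 2 or 3 or treated parental replicate 1 or 3 (adjusted p up to 0.122). In SDS22-degron cells the change was -0.026 (95% confidence interval -0.23 to 0.17). Its ligand TNFSF12 (TWEAK), at 8.46 ± 1.53, 8.88 ± 0.375, 9.23 ± 0.464 and 11.9 ± 0.911 CPM in untreated and treated parental and untreated and treated SDS22-degron cells, was highest in the last group. It was higher there than in treated parental cells by 0.42 (adjusted p = 0.0123; 0.0502 without treated SDS22-degron replicate 3) and than in untreated SDS22-degron cells by 0.36 (adjusted p = 0.0226). The latter call was lost, with adjusted p up to 0.0988, without untreated or treated SDS22-degron replicate 1 or 3.

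TNFRSF25 (DR3), a death-domain receptor known from T cells, rose with Dox/IAA in both lines, by 0.57 in parental (adjusted p = 0.0242) and 0.52 in SDS22-degron cells (adjusted p = 0.0308). The second call rested on a spread of 7.09, 14.1 and 10.3 CPM among the treated libraries and became 0.24 (adjusted p = 0.282) without treated SDS22-degron replicate 2; it was also lost without untreated replicate 2 or 3 or treated replicate 3, and with a GC correction (0.0515). The first was lost without untreated parental replicate 1 or treated parental replicate 2 or 3 (adjusted p up to 0.118). The gene overlaps PLEKHG5 on the same and ESPN on the opposite strand, both with more counts. TNFRSF19 (TROY), at 0.675 to 1.93 CPM, was not called in any of the 5 comparisons.

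Of the ligands, TNFSF9 (4-1BB ligand), a costimulator of T and NK cells, was higher in untreated SDS22-degron cells (52.1, 54.95 and 52.9 CPM) than in untreated parental cells (27.9, 37.6 and 39.8 CPM), by 0.60 on the log2 scale (SE 0.126, adjusted p = 0.00152). Between the treated lines the groups overlapped (45.5 to 62.2 against 36.7 to 47.4 CPM), and the difference of 0.32 (adjusted p = 0.0449) was lost without any one of 6 libraries, with adjusted p up to 0.232: treated parental replicate 2, any untreated SDS22-degron library, or treated SDS22-degron replicate 1 or 3. With Dox/IAA in parental cells its change of 0.31 was not called (adjusted p = 0.0756), but 5 of 22 alternatives called it, the replicate block among them (adjusted p = 0.0412). Its receptor TNFRSF9 had 26 counts over all libraries. TNFSF4 was at 1.02 to 1.65 CPM in untreated parental and 1.97 to 2.68 CPM in untreated SDS22-degron cells, a difference of 0.87 (SE 0.245, adjusted p = 0.0123) that was lost without replicate 2 of either group (adjusted p of 0.0539 and 0.0722). Its receptor TNFRSF4 lies 4.63 kb from TNFRSF18 and had 6 counts over all libraries.

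Other genes of the pathway were counted in the same fit. Of 15 superfamily genes with other symbols 6 were tested, and between the treated lines 3 were higher and 0 lower (21.8% and 23.1% of all tested genes), with a median of 0.38. NGFR, the p75 neurotrophin receptor, went from 6.42 ± 1.86 CPM in untreated parental to 19.6 ± 1.13 CPM with Dox/IAA, and from 20.4 ± 0.397 to 53.4 ± 6.31 CPM in SDS22-degron cells. It was higher in all 4 pairwise comparisons, by 1.60 and 1.39 on the log2 scale with Dox/IAA in parental and SDS22-degron cells, and by 1.66 and 1.45 between the untreated and the treated lines, with adjusted p of 6.37e-07 or less. FAS, the death receptor of FASLG, was higher in treated SDS22-degron than in treated parental cells by 0.88 (SE 0.141, adjusted p = 5.81e-05), and EDA (ectodysplasin) by 0.59 (adjusted p = 0.00115). EDA was already higher between the untreated lines, by 0.48 (adjusted p = 0.011), where FAS was not called (0.33, adjusted p = 0.0898). Neither was called with Dox/IAA in SDS22-degron cells (FAS 0.28, adjusted p = 0.0935, and EDA 0.23, adjusted p = 0.127). Of the 6, only RELT had a called interaction (-0.43, adjusted p = 0.0321). CD40, a receptor of antigen-presenting cells, rose with Dox/IAA in parental cells by 0.44 (adjusted p = 0.00283). CD70, CD27, EDAR, EDA2R, LTA and LTB had at most 29 counts in any group of 3 libraries, and TNF, FASLG and CD40LG had 0.

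Of 14 genes of death receptor signalling 13 were tested, and 2 were higher and 1 lower between the treated lines (median 0.041), against 21.8% and 23.1% of all tested genes. The untested gene, RIPK3, was at 0 counts in all libraries. MLKL, the executor of necroptosis, fell from 10.01 ± 0.672 to 5.64 ± 0.259 CPM with Dox/IAA in SDS22-degron cells (log2 -0.83, adjusted p = 5.91e-05) and was lower than in treated parental cells by -1.30 (SE 0.132, adjusted p = 3.75e-07). It was already lower between the untreated lines, by -0.56 (adjusted p = 0.0019). In parental cells Dox/IAA changed it by -0.082 (adjusted p = 0.637). Its interaction of -0.745 (adjusted p = 0.00924) was the only one called among the 13. Between the treated lines CFLAR, which encodes the caspase-8 inhibitor c-FLIP, and CASP10, an initiator caspase, were higher by 0.30 (adjusted p = 0.00480) and 0.45 (adjusted p = 0.0419). CFLAR was also called higher between the untreated lines (0.22, adjusted p = 0.0495). Within SDS22-degron cells 8 of the 13 rose with Dox/IAA and 2 fell (26.0% and 25.5% of all tested genes), with CASP10 at 1.26 (adjusted p = 1.87e-05). In parental cells 4 rose and 0 fell (15.9% and 15.7%), and the median of the 13 was 0.14 there and 0.30 in SDS22-degron cells, against 0.0015 and 0.0046 for all tested genes.

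Of 29 TRAF adaptors and genes of receptor-driven NF-kB signalling, all tested, 9 were higher and 3 lower between the treated lines (median 0.12), against 21.8% and 23.1% of all tested genes. TNFAIP3, the deubiquitinase A20 and an NF-kB target, was higher by 1.118 (SE 0.226, adjusted p = 0.000547), RNF31, a subunit of the linear ubiquitin ligase, by 0.43 (adjusted p = 0.000270), and the NF-kB subunit gene NFKB1 was lower by -0.56 (adjusted p = 1.24e-05). TNFAIP3 and NFKB1 already differed between the untreated lines, by 0.61 (adjusted p = 0.0417) and -0.42 (adjusted p = 0.00042). With Dox/IAA in SDS22-degron cells TNFAIP3 changed by 0.11 (adjusted p = 0.683) and NFKB1 by -0.35 (adjusted p = 0.000832). Neither of these 2 had a called interaction (adjusted p = 0.315 and 0.435). The interaction was called in 4 of the 29, as positive for RNF31 and RBCK1 (0.54 and 0.95, adjusted p = 0.00363 and 0.00139), where 6.03% of all genes were, and as negative for TRAF2 and CHUK (-0.56 and -0.48, adjusted p = 0.0454 and 0.00614), where 8.35% were. RBCK1 and SHARPIN encode the other subunits of that ligase, and SHARPIN had an interaction of 0.26 that was not called (adjusted p = 0.167). Of the 4 with a called interaction, RBCK1 and CHUK already differed between the untreated lines. These differences were -0.44 (adjusted p = 0.0118, with overlapping groups) and 0.26 (adjusted p = 0.0171). Of the 3 proteases that process ligands and receptors, FURIN rose 1.14 with Dox/IAA in SDS22-degron (adjusted p = 1.18e-07) and 0.70 in parental cells (adjusted p = 0.000120) on the log2 scale, while ADAM10 and ADAM17 rose in SDS22-degron cells by 0.23 and 0.20. The interaction was called for none of these 3 proteases (FURIN 0.44, adjusted p = 0.0631).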

How the data were processed

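The authors sequenced poly(A)-selected, stranded libraries (single 75-base reads) and deposited raw counts per gene, not normalized, with each gene's length and its GC content in percent. The submitters' processing notes name cutadapt 1.15, Bowtie2 2.3.3.1, STAR 2.5.2b, SAMtools 1.5, featureCounts 1.5.3 and GRCh38; the annotation release and the strand setting are not given in the sources used here. Reads that match several or overlapping genes, where discarded, lower the counts of genes that share sequence. Counts were tested in R 4.3.3 with edgeR 4.0.16 (TMM scaling, filterByExpr with a minimum count of 10, 1 fit of 4 group means over all 12 libraries, quasi-likelihood F test, Benjamini-Hochberg adjustment over 16657 genes). CPM values use the TMM-scaled totals (factors 0.9708 to 1.03); the common biological coefficient of variation was 7.48%. The SE over genes had a median of 0.11 on the log2 scale between the treated lines, and 0.156 for the interaction. Other settings tried were a likelihood ratio test, DESeq2 1.42.0, other scalings and filters, GC correction, a replicate block, subsets of groups and leaving out each library.

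The superfamily and the lists were chosen with earlier results of these data known. Genes given in every library are those called with an absolute log2 fold change above 1 in any comparison, TNFSF18, TNFSF10 and their receptors, and TNFRSF21, TNFSF4 and TNFSF9 in part; other called genes have fold changes, and from each list genes called above 1 and the 3 most significant ones between the treated lines were named. Other named genes were chosen after their values were seen. The replicates are described as independent experiments. No 2 libraries were identical. Same-numbered libraries deviated together between untreated and treated parental cells (r from 0.124 to 0.246) and between the treated lines (0.101 to 0.138), by the data and not by the labels. Between the untreated lines r was 0.0584 to 0.118, and in the other pairs of groups it ran from -0.0569 to 0.0953. The tests were checked on simulated data. Promoter windows are from RefSeq (GRCh38.p14), and recurring 75-base words were counted in the GENCODE transcripts at hand, which may differ from the annotation of the counts.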

Additional observations from a re-analysis of the deposited data

Results flagged for a closer look

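The response to Dox/IAA differed between SDS22-degron and parental cells by the interaction term in 5 superfamily genes. For TNFSF18 the difference was 1.86 on the log2 scale, with decreases in both lines. It was 0.55 for TNFRSF10B and 0.62 for TNFRSF10C, which rose with Dox/IAA in SDS22-degron cells and were not called in parental cells, although 4 alternatives called the rise of TNFRSF10B there. It was 0.51 for TNFRSF21, which fell in parental cells and was not called in SDS22-degron cells. It was -1.07 for TNFRSF13C, which fell in SDS22-degron cells and was called lower in parental cells in 7 of 22 alternatives only. Of these, the calls for TNFSF18 and TNFRSF10B held under every alternative run, and those for TNFRSF10C, TNFRSF21 and TNFRSF13C each depended on single libraries. The call for TNFRSF13C was also lost with DESeq2 (adjusted p = 0.0672). Groups of 3 libraries were not searched for outlying samples.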

How the results depend on the processing

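Of 38 superfamily results called (16 genes in 5 comparisons), 25 were called under every alternative; of their 831 alternative values 772 stayed past the threshold in the same direction, 59 did not pass and 0 changed sign. Of the 42 results not called, 11 were called at least once, and 34 of their alternative values had the other sign without a call. With the study's cut-off in place of the adjusted p, the number of superfamily genes went from 10 to 4 between the treated lines, from 8 to 1 between the untreated lines, from 9 to 3 with Dox/IAA in SDS22-degron cells, from 6 to 1 in parental cells and from 5 to 2 for the interaction, since this rule also asks for a 2-fold change. Leaving out one library at a time gave 9 to 11, 6 to 9, 6 to 9, 4 to 8 and 2 to 5 genes in the same order, with fewer samples in each fit. In 10 of these fits TNFRSF1B also passed the filter, and without it the ranges were 8 to 10, 6 to 9, 6 to 9, 4 to 7 and 2 to 5. The replicate block gave 10, 9, 9, 8 and 5 genes in that order; it added calls for TNFRSF13C (-0.55, adjusted p = 0.0339, between the untreated lines; -0.54, adjusted p = 0.0350, in parental cells) and TNFSF9 (0.31, adjusted p = 0.0412, in parental cells) and changed no other call. The interaction could not be fitted on only the groups compared. Of the 33 genes 17 had too few counts for a test, and TNFRSF13C and TNFSF18 had 8 to 17 counts a library in their lowest group. TNFRSF19 had 8 to 11 and TNFSF4 13 to 20 counts a library in untreated parental cells.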

Other observations

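Among the genes with too few counts for the test, TNFRSF1B (TNFR2), a TNF receptor without a death domain, had 3, 4 and 3 counts in untreated and 12, 8 and 14 counts in Dox/IAA-treated parental libraries, against 2, 4 and 4 counts in untreated and 3, 1 and 5 counts in treated SDS22-degron libraries. In the fit without a filter on low counts its log2 fold change was 1.66 with Dox/IAA in parental cells (adjusted p = 0.0171) and -1.87 between the treated lines (adjusted p = 0.00437), and the interaction of -1.69 was not called (adjusted p = 0.335). TNFSF15 (TL1A), the ligand of TNFRSF25, had 0, 0 and 2 counts in untreated and 0 counts in all 3 treated parental libraries, against 2, 1 and 3 counts in untreated and 3, 4 and 0 counts in treated SDS22-degron libraries. In the same fit without a filter the treated lines differed by 4.31 on the log2 scale (adjusted p = 0.0416), which rests on 0 against 7 counts.

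LTA (lymphotoxin alpha) had 9 counts over the treated SDS22-degron libraries and 1 or 2 counts over each of the other groups. It was not tested.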
